A study of Homo sapiens with 5 samples.

Results

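The data describe ERα binding around the long non-coding RNA genes NEAT1 and MALAT1, which lie next to each other on chromosome 11q13. The members are the ERα peaks on chromosome 11 between 63100000 and 66800000 of build hg18, the build that the submitters' notes name for these files. This stretch of 3.7 Mb was chosen by the listed positions of the peaks, so the number of peaks in it is a description and was not tested. It held 28 of the 6565 peaks in the series. Of these, 24 came from VCaP ERα + E2, 3 from VCaP + E2, 1 from NCI-H660 + E2 and 0 from VCaP.

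Each list came from 1 library of chromatin immunoprecipitated with an antibody to ERα and sequenced (ChIP-seq), which leaves no replicates, and differences between conditions are therefore described and not tested. VCaP is an established androgen-sensitive prostate cancer line, here at passages 3 to 4, and NCI-H660 is an established line of neuroendocrine prostate cancer, here at passages 4 to 5. The E2 libraries of both unmodified lines came from cells kept without hormone for 48 h and then given 10 nM 17β-oestradiol (E2) for 14 h, and the routine medium of NCI-H660 also contained 10 nM of E2. VCaP ERα cells stably overexpress the receptor and were at passages 10 to 12. The labels give E2 for them but neither its dose nor its time. The methods give several E2 times for ERα ChIP in these cells without tying one to the sequenced library, and list a plasmid for ERα without tying it or its promoter to this line. The label of the VCaP library names no agent. Hormone starvation is given neither for it nor for VCaP ERα + E2.

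ERα is a nuclear receptor that binds DNA when activated by oestrogen, often at oestrogen response elements, and changes transcription of genes near or far from its sites. NEAT1 RNA builds the paraspeckles of the nucleus. MALAT1 RNA is an abundant nuclear transcript found at nuclear speckles, and both genes are transcribed in the same direction. In the RefSeq table of GRCh38.p14, used here for gene order alone, TIGD3, FRMD8 and SLC25A45 precede NEAT1 and MALAT1, and LTBP3, RELA (a subunit of NF-κB) and KAT5 (a histone acetyltransferase) follow. No protein-coding gene is listed between NEAT1 and MALAT1, where the table holds the pseudogene FAUP4 and the non-coding RNAs ENEMAL and LINC02736. MIR612 is listed within NEAT1 and MASCRNA, a small RNA cut from the MALAT1 transcript, within MALAT1.

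A genome of build hg18 was not used here, so the bases under the peaks are not printed. RefSeq sequence at the starts of MALAT1 is shown because a response element at a gene start can be read directly from it. Both windows are on the plus strand of GRCh38.p14, at chr11:65497488-65497787 and chr11:65498795-65499094, positions that cannot be compared with the hg18 positions of the peaks. Each runs from 250 bases before to 50 bases after a start, and capitals mark the 50 bases from the start on.
MALAT1 first window: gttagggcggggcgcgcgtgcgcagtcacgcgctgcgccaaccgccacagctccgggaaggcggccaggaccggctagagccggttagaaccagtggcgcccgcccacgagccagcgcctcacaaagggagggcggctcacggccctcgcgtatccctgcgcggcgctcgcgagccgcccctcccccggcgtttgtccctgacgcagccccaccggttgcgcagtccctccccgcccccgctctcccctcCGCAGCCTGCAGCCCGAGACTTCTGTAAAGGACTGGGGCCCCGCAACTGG
MALAT1 second window: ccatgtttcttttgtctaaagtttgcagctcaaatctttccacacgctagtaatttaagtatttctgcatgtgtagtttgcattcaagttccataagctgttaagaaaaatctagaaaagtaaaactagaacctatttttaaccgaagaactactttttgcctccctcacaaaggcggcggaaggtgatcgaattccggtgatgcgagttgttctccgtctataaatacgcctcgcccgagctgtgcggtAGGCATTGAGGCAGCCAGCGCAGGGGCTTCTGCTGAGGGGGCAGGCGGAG
The first window was 73.7% G and C and the second 46%. Neither held the half-site GGTCA on either strand, a pattern found in 37.4% of the 35116 RefSeq windows of this length. The palindromic element (GGTCA, 3 bases of any kind, then TGACC), which contains a half-site on each strand, was found in 0.0570% of all windows and in neither window of MALAT1. Of the 21 windows for 13 of the 16 genes listed by name from this neighbourhood, 4 held a half-site and 0 the palindrome. The half-sites were in windows of FRMD8, SLC25A45 and CAPN1. NEAT1 has no window in the table.

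Peaks lay within 25 kb of the pair of genes in 3 of the 4 lists, and no list had a peak within them. On hg18 the genes were placed at about 64.95 to 65.03 Mb, with NEAT1 at the lower and MALAT1 at the upper end. These edges are rounded to 0.01 Mb, so every distance to them carries an uncertainty of 5 kb that comes from the gene and not from the peak. Exact hg18 positions of the genes were not used here, and the counts at promoters of 5 and 10 kb turn on this rounding. So does the VCaP ERα + E2 count within 25 kb. Over all lists the last base of a peak before the genes was at 64942935 and the first base of a peak after them at 65040330. The 97.4 kb between was free of peaks in each list and includes the stretch of 80 kb with its rounding on both sides.

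The study describes 2 sites of ERα binding at the promoter of NEAT1 from its data of VCaP ERα and NCI-H660 cells. It also reports ERα at this promoter by separate ChIP with PCR. That was done in NCI-H660 cells and in VCaP cells with and without receptor overexpression. In its reporter assays in VCaP cells, the activity of the promoter rose with ERα and further with E2. Those experiments were not analysed here. Whether the deposited lists hold peaks at the promoter was read off by position. In VCaP ERα + E2, 1 peak of 113 bp ran from 64941249 to 64941361, about 8.64 kb before NEAT1 (3.64 to 13.6 kb with the rounding). The next, of 104 bp, ran from 64942832 to 64942935, about 7.07 kb before it (2.07 to 12.1 kb). The pair lay 1470 bp apart, and the next peak of the list on that side was 306.2 kb further away. These were the nearest peaks to NEAT1 in the series. With the promoter taken as 10 kb before the start, VCaP ERα + E2 had 2 peaks there and the other lists 0. A promoter of 2 or 5 kb held 0 peaks of VCaP ERα + E2 and one of 50 or 100 kb held 2. With the start 5 kb later, at the upper limit of its rounding, 10 kb held 0, and with the start 5 kb earlier, at the lower limit, 5 kb held 2. Within 100 kb before NEAT1 the other 3 lists, NCI-H660 + E2 among them, had 0 peaks at each placement of the start.

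**Figure D1:**
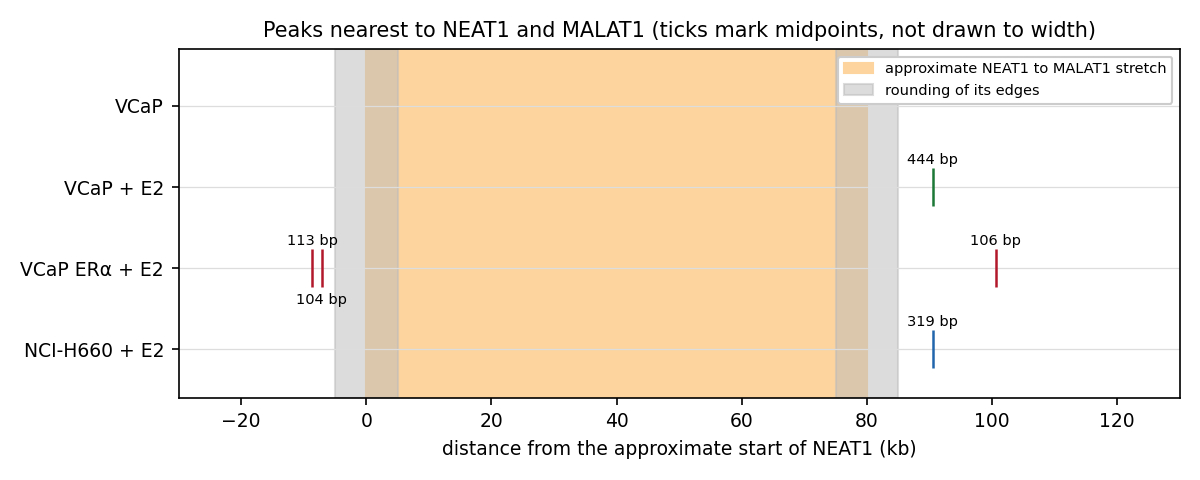
ERα peaks near NEAT1 and MALAT1 in the 4 lists, plotted by distance in kb from the approximate start of NEAT1; ticks mark peak midpoints with the width beside them, orange shading marks the stretch of both genes and grey shading the 5 kb rounding of its edges. VCaP ERα + E2 has 2 ticks before NEAT1 and 1 after MALAT1, while VCaP + E2 and NCI-H660 + E2 each have 1 tick at the same place after MALAT1 and VCaP has none.

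On the other side, the first peak after MALAT1 was common to 2 cell lines. In VCaP + E2 it ran from 65040330 to 65040773, a width of 444 bp, about 10.3 kb after MALAT1 (5.33 to 15.3 kb with the rounding). In NCI-H660 + E2 it ran from 65040370 to 65040688, a width of 319 bp, and lay whole within the VCaP + E2 peak, which reached 40 bp further to the left and 85 bp to the right. Their midpoints differed by 22.5 bp. Whether this site lies within a gene was not analysed here. VCaP ERα + E2 had no peak at the site. Its nearest, of 106 bp from 65050528 to 65050633, lay 9.75 kb beyond the VCaP + E2 peak and about 20.5 kb after MALAT1 (15.5 to 25.5 kb).

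Thus within 25 kb of the genes as placed VCaP ERα + E2 had 3 peaks, VCaP + E2 and NCI-H660 + E2 1 each, and VCaP 0. The counts at 100 kb were the same, and at 350 kb 1 peak was added in VCaP ERα + E2. The 106 bp peak of VCaP ERα + E2 lay up to 25.5 kb after MALAT1 with the rounding, so the count at 25 kb turns on it. In VCaP + E2 the nearest peak before NEAT1 was at 64026847 to 64027003, about 0.923 Mb away. In NCI-H660 + E2 it was at 59570089 to 59570215, about 5.38 Mb away and outside the stretch. The VCaP list had 5 peaks on the chromosome. The nearest of these to the genes lay from 30499903 to 30500047, about 34.45 Mb before NEAT1, and from 69039315 to 69039526, about 4.01 Mb after MALAT1. None of the 241 VCaP peaks was in the stretch, and a count of 0 allows up to 1.245% of that list at 3 counts, or 1.52% by the exact Clopper-Pearson interval.

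Most peaks of VCaP ERα + E2 in the stretch were far from both genes. Of the 24, 21 lay before NEAT1 and 3 after MALAT1, and 18 (75%) were packed into 0.951 Mb from 63114263 to 64065423, the nearest of them about 0.885 Mb before NEAT1. With peaks joined when at most 50 kb apart, 17 peaks formed 5 runs and 7 stood alone. The first run had 4 peaks of 102 to 174 bp, at 63114263 to 63114364, 63138388 to 63138561, 63144181 to 63144307 and 63146610 to 63146774, the farthest 1.84 Mb before NEAT1. The second had 3 peaks of 168 to 228 bp within 2.58 kb, at 63396330 to 63396535, 63397057 to 63397224 and 63398686 to 63398913, about 1.55 Mb before it. The first 2 of them were 521 bp apart, the smallest gap of the stretch.

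The third run held 4 peaks of 198 to 319 bp, at 63658079 to 63658276, 63659180 to 63659449, 63675041 to 63675245 and 63680541 to 63680859, from 1.29 to 1.27 Mb before NEAT1. The fourth held 4 peaks of 185 to 320 bp, at 63838791 to 63839042, 63853634 to 63853822, 63877823 to 63878007 and 63883323 to 63883642, from 1.11 to 1.07 Mb before it. The pair nearest to NEAT1 was the fifth run. Widths thus overlapped between the runs, and the runs near 1.1 and 1.3 Mb contained the widest peaks of the stretch, of 320 and 319 bp.

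Of the 7 single peaks, 4 lay before NEAT1. They were at 63500319 to 63500545 (227 bp, 1.45 Mb before it), 63732385 to 63732509 (125 bp, 1.22 Mb), 64065292 to 64065423 (132 bp, 0.885 Mb) and 64634844 to 64635053 (210 bp, 0.315 Mb). Besides the peak 20.5 kb after MALAT1, those on the far side were at 66372961 to 66373241 (281 bp, 1.34 Mb after it) and 66797380 to 66797526 (147 bp, 1.77 Mb after it). The largest gap between neighbours, of 1.32 Mb, was on that side. The median of the 23 gaps was 24.0 kb.

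**Figure D2:**
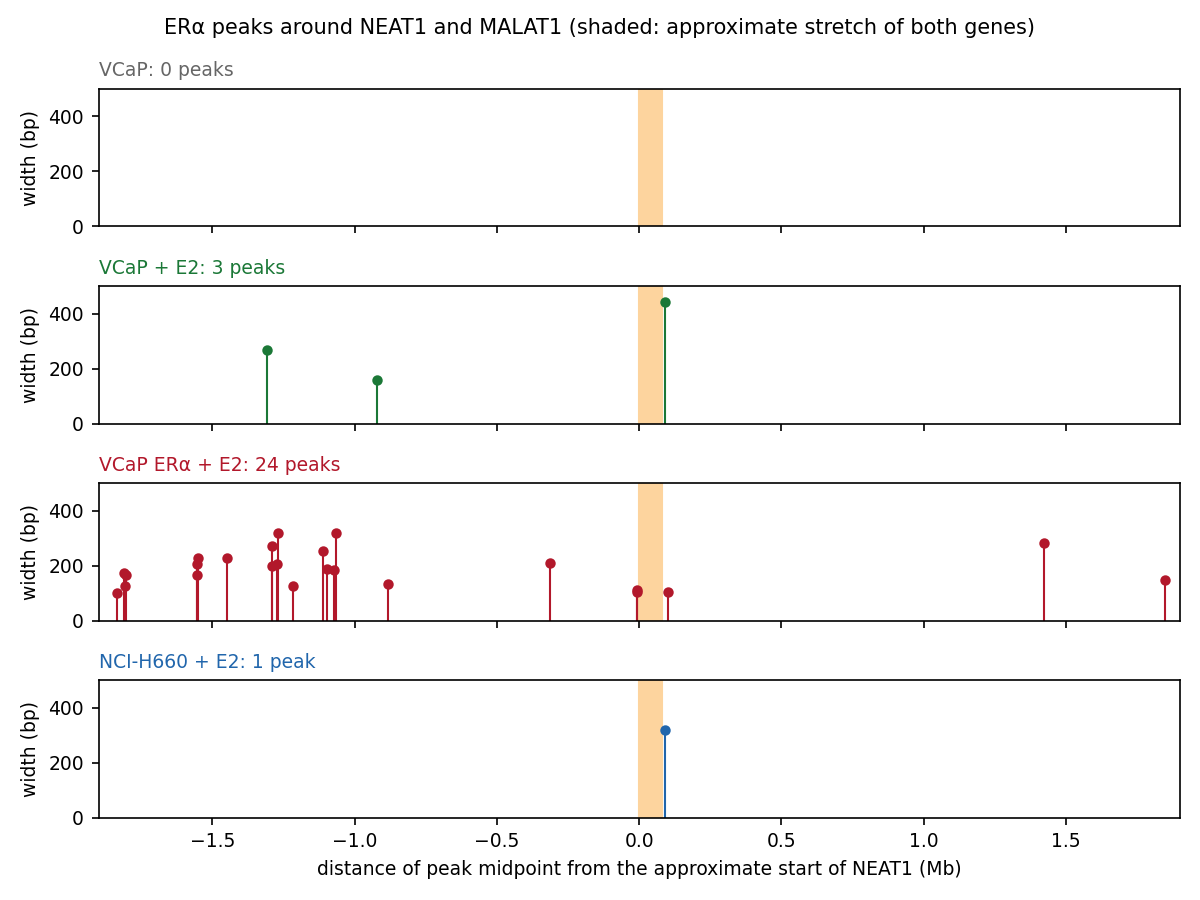
All 28 peaks of the stretch by list, with the distance of the midpoint from the approximate start of NEAT1 in Mb on the x axis and the peak width in bp on the y axis; shading marks NEAT1 and MALAT1. The 24 VCaP ERα + E2 peaks lie mostly before the genes, and the widest peak, 444 bp in VCaP + E2, stands just after them beside the 319 bp peak of NCI-H660 + E2.

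The remaining VCaP + E2 peaks were also before NEAT1. One of 266 bp ran from 63641471 to 63641736, about 1.31 Mb before the gene, and the other was the 157 bp peak at 64026847 to 64027003. They lay 16.3 kb and 38.3 kb from the nearest VCaP ERα + E2 peak and overlapped no other list. The stretch was placed on these peaks, so the shares that follow and their intervals describe the lists and compare nothing. The peaks of the stretch made up 1.31% of VCaP ERα + E2 (95% exact Clopper-Pearson interval 0.841 to 1.94%), 0.120% of VCaP + E2 (0.0247 to 0.350%) and 0.05035% of NCI-H660 + E2 (0.001275 to 0.280%). Intervals and limits cover at most counting error with each peak taken as independent, although 17 of the VCaP ERα + E2 peaks stood in runs. The read depth of the libraries is unknown.

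The limits of the stretch follow the VCaP ERα + E2 peaks closely. Its first peak began 14.3 kb inside the lower limit and its last ended 2.47 kb inside the upper one, and the list had none elsewhere on the chromosome. Just outside, the list of VCaP + E2 had peaks of 111 bp at 60800955 to 60801065 and of 167 bp at 67668893 to 67669059, which are 2.30 Mb below and 0.869 Mb above the limits. NCI-H660 + E2 had a peak of 159 bp at 73169697 to 73169855, 6.37 Mb above.

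Peak width was not used to choose the members. In VCaP ERα + E2 the narrowest of the 24 was 102 bp, the median 187 bp and the widest 320 bp, and 17 of 24 were at or under the median of the whole list, 219 bp. That list ran from 99 to 98499 bp, and 33.8% of it was wider than the widest peak of the stretch. The whole list includes X and Y, where the densest windows as long as the stretch had median widths of 408 and 383 bp. Such windows had medians of 188 bp on chromosome 22, 187.5 bp on 19 and 184.5 bp on 21. The medians were 171 bp on 15, 164.5 bp on 13, 140 bp on 9 and 270.5 bp on 1. Widths of the list without chromosomes 13, X and Y were not analysed here. The shares of the whole list thus do not show that the stretch was unusually narrow. The 3 peaks within 25 kb of the genes were among the 4 narrowest of the 24. Of the whole list, X and Y included, 8.40% was as narrow as the 113 bp peak or narrower. The share was 3.82% for the 104 bp peak before NEAT1 and 4.97% for the 106 bp peak after MALAT1.

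The site after MALAT1 that VCaP + E2 and NCI-H660 + E2 shared was at the other end of their width ranges. In VCaP + E2, 91.0% of peaks were as narrow as this 444 bp peak or narrower, where the list median was 169 bp. In NCI-H660 + E2 the share was 89.0% for the 319 bp peak, and the list median was 166 bp. Over the whole VCaP + E2 list the 874 peaks that overlapped NCI-H660 + E2 had a median width of 288 bp and the other 1631 one of 162 bp. The lists give no height or score, so width is the one property of a peak besides its position.

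**Figure D3:**
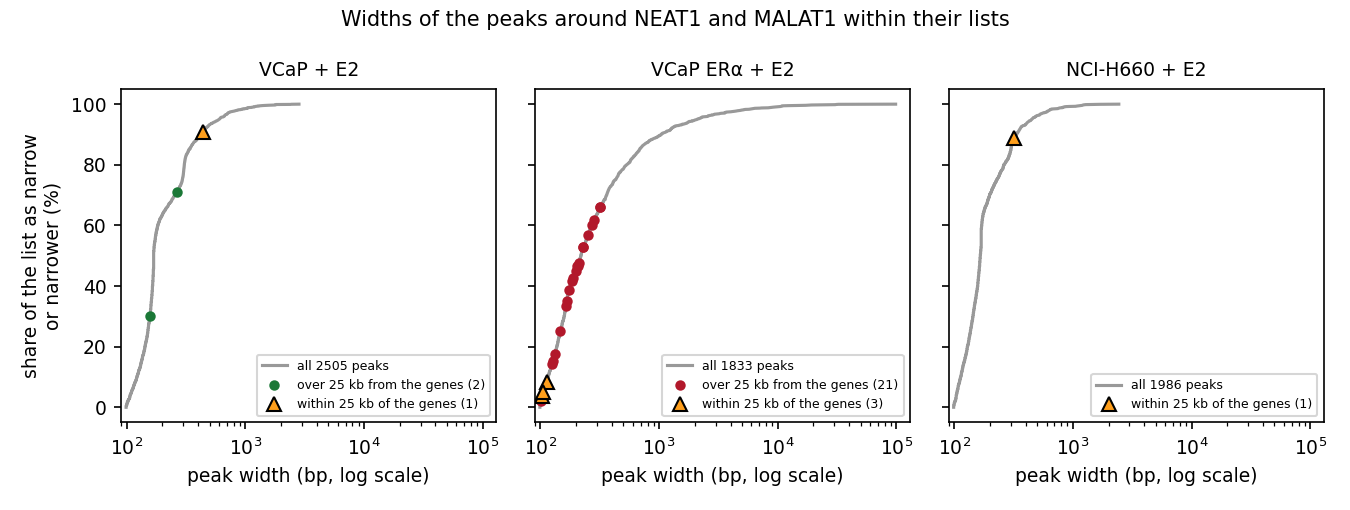
Cumulative widths of all peaks in the 3 lists with peaks in the stretch (grey lines; x axis in bp on a log scale, y axis the share of the list as narrow or narrower), with the peaks of the stretch as points. Triangles mark the peaks within 25 kb of the genes at their approximate place. These peaks sit at 8.40% or lower in VCaP ERα + E2 and at 91.0% and 89.0% in VCaP + E2 and NCI-H660 + E2, all of whole lists with X and Y included.

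Whether peaks of the stretch recurred in another list was asked with a minimum overlap of 1 bp. In VCaP ERα + E2 0 of 24 overlapped a peak of any other list, where 11.2% of the whole list did and 4.59% outside chromosomes 13, X and Y. Chromosome 11 belongs to the latter set, and 0 of 24 lies near that share. In VCaP + E2 1 of 3 did, against 48.6% of the list and 50.8% outside those chromosomes, and in NCI-H660 + E2 1 of 1, against 45.6% and 41.6%. The count for VCaP ERα + E2 was also 0 when peaks with midpoints within 1000 bp were counted as shared.

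The stretch was chosen by the positions of its peaks, so their closeness is a description and compares nothing. Another peak of the same list lay within 2000 bp for 7 of the 24 VCaP ERα + E2 peaks, including both before NEAT1. In the whole list 60.9% of peaks had such a neighbour, and outside chromosomes 13, X and Y 13.5%. No peak of VCaP + E2 or NCI-H660 + E2 in the stretch had one.

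Other chromosomes of the VCaP ERα + E2 list were described with windows of 3.7 Mb, the length of the stretch. That length follows the 24 peaks on 11, so a share of 100% there was fixed in advance and compares nothing. Of the 10 chromosomes with at least 20 peaks, X (99.5% of 610) and 13 (98.5% of 400) also had over 90% in a single window. Chromosome 18, with fewer peaks, had 7 of 7 in one. In number of peaks the densest windows of chromosomes 1 and 21 were most like that of 11, with 24 and 28. Their median widths were 270.5 and 184.5 bp beside 187 bp on 11, and their widest peaks 577 and 579 bp beside 320 bp. Gaps had a median of 5.185 kb on 1 and 59.9 kb on 21, beside 24.0 kb on 11. On chromosome 11 the densest 3.7 Mb of VCaP + E2 held 8 of its 40 peaks and that of NCI-H660 + E2 3 of its 27. These windows were found for each list by itself and are not the stretch, which held 3 and 1 of those peaks. With 1 library these values describe the lists and were not tested.

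**Figure D4:**
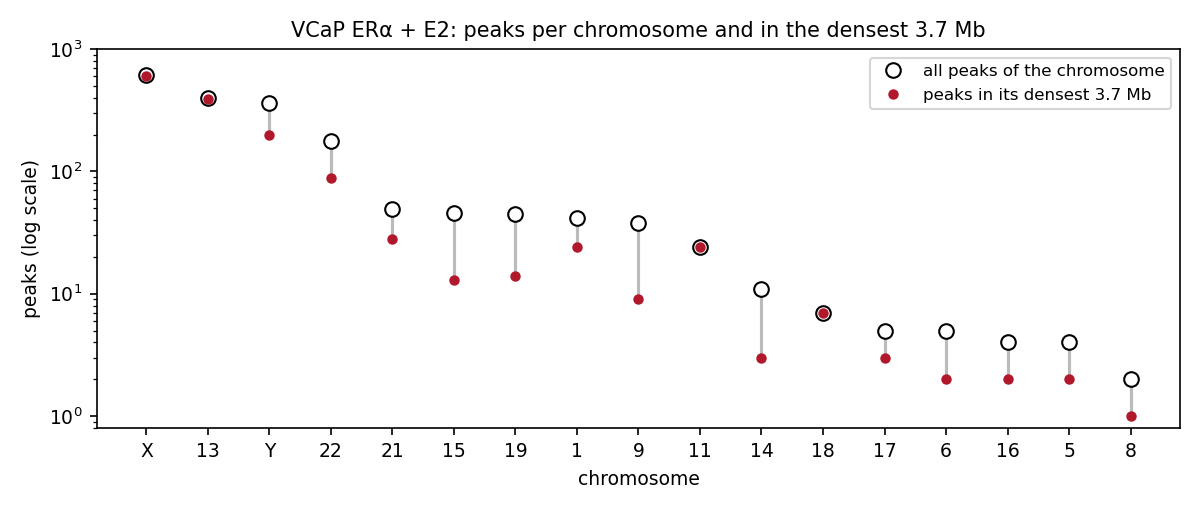
Number of VCaP ERα + E2 peaks per chromosome (open circles) and in the densest 3.7 Mb of it (filled circles), on a log axis. On chromosome 11, whose peaks set the window length, the circles coincide at 24. They also coincide on 18, at 7, and nearly do on X and 13, whereas on 21 the window holds 28 of 49 peaks and on 1 it holds 24 of 42.

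Between VCaP + E2 and VCaP ERα + E2, receptor overexpression, passage, any difference in E2 treatment or hormone starvation and sequencer cannot be told apart. Between VCaP and VCaP ERα + E2, which shared a sequencer, the same holds for receptor overexpression, E2, passage and any difference in starvation. Between VCaP and VCaP + E2 it holds for E2, sequencer and any difference in starvation. VCaP + E2 and NCI-H660 + E2 shared the sequencer and the dose, time and starvation, and differed in cell line, medium and passage. The libraries of VCaP and VCaP ERα + E2 were run on a HiSeq 2000 and the others on a Genome Analyzer II, and the site after MALAT1 was found in the pair of lists from the latter instrument. Input DNA of VCaP cells was not analysed here.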

How the data were processed

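ERα ChIP-seq was analysed in 4 libraries, 1 per group, which were grouped by their titles in the labels. The authors deposited a peak list per library with 3 columns (chromosome, start and end in bp) and no score. The submitters' processing notes name CASAVA 1.8 and build hg18, and the study names ChIPSeeqer as peak caller; its threshold, duplicate filters and use of input are not given in the sources used here. Start columns count from 0 as in BED files, and 1 was added to every printed start.

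The members and lists were chosen with earlier results of these data known. The named genes are NEAT1, MALAT1 and 14 fixed neighbours, and each peak of the stretch is given; 1 of these neighbours is not reported here. Distances run from the nearer peak edge to the approximate hg18 stretch of the genes. Counts carry exact Clopper-Pearson intervals, and the limit for 0 is 3 counts. No test was run. RefSeq tables of GRCh38.p14 gave gene order (16 of 16 names matched) and promoter sequences. Genes under the other peaks, positions of paraspeckle and other ERα target genes, and response elements within peaks were not analysed here. The counting functions were tested on simulated data. Python 3.11.15, numpy 2.4.6, scipy 1.17.1 and matplotlib 3.10.9 were used.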

Additional observations from a re-analysis of the deposited data

How the results depend on the processing

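The lists have no score to tighten, so the wider 50% of each was kept instead, which removed the 3 VCaP ERα + E2 peaks nearest to the genes by construction, since they are narrow. It left 7 of 24 peaks in the stretch, and the nearest peak was then 1066 kb before NEAT1 and 1343 kb after MALAT1. The nearest peak before NEAT1 moved to 1308 kb in VCaP + E2 and to 35247 kb in NCI-H660 + E2, the site after MALAT1 shared by these lists was kept, and VCaP had no peak left on the chromosome. At the NEAT1 promoter the VCaP ERα + E2 count of 2 fell to 0 with 2 or 5 kb in place of 10 kb. It also fell to 0 at 10 kb with the start at the upper limit of its rounding. With the start at the lower limit, 5 kb held 2 peaks, so the count at 5 kb turns on the rounding too. Merging, the wider window, midpoints and the other rules for sharing changed no count by over 1.5 times. The rounding limits and the background without chromosomes 13, X and Y were chosen after the data were seen. No paired analysis was possible because there was a single library per group, which also means that no replicate could be left out. Alternatives for peaks in genes and response elements in peaks were not run, since an hg18 annotation and genome were not used here. The unknown read depth limits every comparison of counts between lists.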

Other observations

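One arrangement of VCaP ERα + E2 peaks occurred at 2 places of the stretch and was picked out after the positions were seen. The peaks of 205 and 319 bp at 63675041 to 63675245 and 63680541 to 63680859 begin 5500 bp apart. So do the peaks of 185 and 320 bp at 63877823 to 63878007 and 63883323 to 63883642, which begin 202782 bp further along. Among the 276 distances between the starts of the 24 peaks, 2 values occurred more than once, and both belong to this arrangement. The second repeated value follows from the first, so they count as 1 repeat. Whether the sequence at the 2 places is alike was not tested.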
